A study of Mus musculus with 7 samples.

Results

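Adrenergic receptors and the cAMP cascade behind them were followed in the hearts of mice with transgenic Nrf2, as 9 genes chosen by name out of 14641 genes in the count table: the receptors Adrb1, Adra1a and Adra1b, the adenylyl cyclases Adcy5 and Adcy6, the protein kinase A (PKA) subunits Prkaca and Prkar1a, and the phosphodiesterases Pde3a and Pde4d. They were taken by function, with earlier results of these data known. All 9 passed the filter on low counts, with mean counts per library from 120 for Adrb1 to 5853 for Prkar1a.

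Noradrenaline and adrenaline reach the cardiomyocyte through beta-adrenergic receptors, which act through the stimulatory G protein on adenylyl cyclase, and through alpha-1 receptors, which act through Gq and phospholipase C. Cyclase makes the intracellular messenger cAMP, which binds the regulatory subunits of PKA and frees the catalytic subunits to phosphorylate calcium channels, phospholamban and troponin I. Phosphodiesterases break cAMP down and keep the signal local, and this cascade is the main way by which sympathetic nerves raise the rate and force of the heartbeat.

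The 2 groups were 4 non-transgenic (NTG) and 3 mNrf2-TG hearts, with 1 library per mouse, from male C57BL/6J mice. The transgene is full-length mouse Nrf2 under the alpha-myosin heavy chain promoter, which is active in cardiomyocytes and not in the other cells of the heart. The labels give an age of 6 months for the mNrf2-TG mice and none for NTG, and the tissue as a lysate of whole heart. The ages in the study's other descriptions differ somewhat from this. Counts on the listed genes ran from 6534684 to 8405857 per library, and p-values measure the spread between these mice. Nfe2l2, which encodes Nrf2, was counted 729 to 1392 times per NTG library and 10912 to 12839 times per mNrf2-TG library (Log2FC 3.36, SE 0.18), the order that the genotype labels call for. The cardiomyocyte markers were abundant in every library, while Myl7, the atrial myosin light chain, had 0 to 4 counts per library, so that this marker of the atria was all but absent from tissue labelled as whole heart. NTG replicate 3 stood apart from the other NTG libraries, at a root mean square difference of 0.37 to 0.39 in log2 level against 0.18 to 0.26 among the other 3, and values without it are given below.

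Of the 9 genes, 1 passed an adjusted p under 0.05 in edgeR's quasi-likelihood test, against 17.2% of the 14637 genes tested, and this was Prkaca, the catalytic alpha subunit of PKA. The same gene was the only one of the 9 whose groups did not overlap, which held for 29.7% of all genes. None of the 9 had both an unadjusted p under 0.05 and a change above 2-fold, as 5.65% of all genes did. The Log2FC of mNrf2-TG against NTG was above 0 for 5 genes and below 0 for 4, with a median of 0.04 beside 0.00 over all genes tested. Neither receptors, cyclases nor phosphodiesterases among the 9 passed the test.

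**Figure D1:**
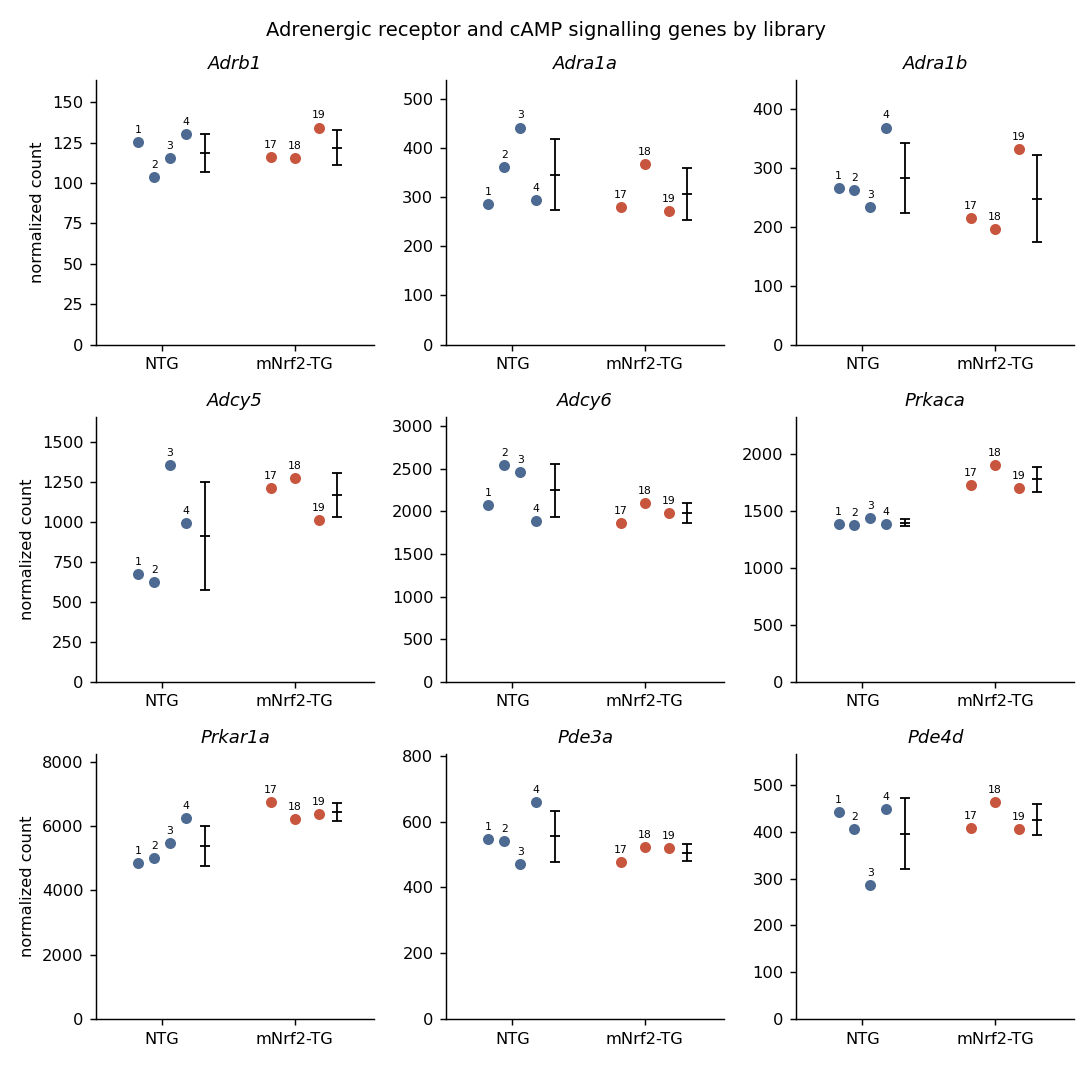
Normalized counts (vertical axes, from 0) of the 9 genes in each library, labelled by replicate number, for NTG (blue) and mNrf2-TG (red), with the group mean and SD as a black bar. The Prkaca counts of the 3 mNrf2-TG hearts, 1700 to 1907, lie above all 4 NTG hearts, at 1380 to 1440, and the groups overlap for the other 8 genes.

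Adrb1 encodes the beta-1 receptor, the main beta-adrenergic receptor of the cardiomyocyte (Entrez gene 11554, chromosome 19, 56722199 to 56733113, plus strand, in GRCm38). Its normalized counts were 125, 103, 115 and 130 in the 4 NTG hearts and 116, 115 and 134 in the 3 mNrf2-TG hearts. The groups overlapped, and the highest and the lowest libraries were 1 of each genotype. Means of 119 ± 11.9 (SD, n = 4) and 122 ± 10.7 (SD, n = 3) gave a Log2FC of 0.04 (SE 0.12), with an edgeR adjusted p of 0.844. The 95% interval of the change ran from 14.5% lower to 24.1% higher, so that larger changes lie outside it.

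Adra1a and Adra1b encode the alpha-1A and alpha-1B receptors, which couple to Gq (Entrez genes 11549 and 11548, chromosome 14, 66635251 to 66771168, plus strand, and chromosome 11, 43774606 to 43901210, minus strand, in GRCm38). Adra1a had 285, 361, 441 and 295 normalized counts in NTG and 280, 367 and 272 in mNrf2-TG. Adra1b had 265, 263, 233 and 368 in NTG and 215, 196 and 332 in mNrf2-TG. The groups overlapped for both genes, and for each gene 1 heart of each genotype lay above the rest of its group: NTG replicate 3 and mNrf2-TG replicate 18 for Adra1a, and NTG replicate 4 and mNrf2-TG replicate 19 for Adra1b. Adra1a was at a Log2FC of -0.18 (SE 0.16, edgeR adjusted p = 0.504). Adra1b was at -0.19 (SE 0.20, edgeR adjusted p = 0.571). Single libraries moved both: Adra1a was at -0.04 without NTG replicate 3 and -0.33 without mNrf2-TG replicate 18, and Adra1b at -0.03 without NTG replicate 4 and -0.45 without mNrf2-TG replicate 19, with adjusted p of 0.136 or above in each. Adra1a made up 54.9% ± 8.93 (SD, n = 4) of the raw counts of the pair in NTG and 55.6% ± 10.1 (SD, n = 3) in mNrf2-TG. This share moved by less than its spread within either group. It is not scaled to gene length. Per kilobase of exon (RPKM), Adra1b was the higher in NTG hearts, at a mean of 11.1 against 5.26 for Adra1a. The third alpha-1 receptor gene, Adra1d, had 9.9 to 19.6 normalized counts in NTG hearts and 22.7 to 34.4 in mNrf2-TG hearts, and although these ranges do not overlap, its Log2FC of 0.84 (SE 0.29) had an edgeR adjusted p of 0.0760.

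Adcy5 and Adcy6 encode the main adenylyl cyclases of the adult cardiomyocyte, both inhibited by calcium (Entrez genes 224129 and 11512, chromosome 16, 35154877 to 35305738, plus strand, and chromosome 15, 98589973 to 98610076, minus strand, in GRCm38). Adcy5 varied more among NTG hearts than any other of the 9 genes, at 677, 623, 1360 and 997 normalized counts, a coefficient of variation of 37.2%. The 3 mNrf2-TG hearts had 1216, 1279 and 1013. All mNrf2-TG values were above 3 of the NTG hearts and below NTG replicate 3. The Log2FC was 0.35 (SE 0.23), as large as that of Prkaca, but with a 95% interval of -0.17 to 0.88 and an edgeR adjusted p of 0.330. Without NTG replicate 3 it became 0.61 (SE 0.16) with an edgeR adjusted p of 0.0234, so that 1 library decided the call for Adcy5.

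Adcy6 had 2077, 2547, 2462 and 1889 normalized counts in NTG and 1861, 2099 and 1983 in mNrf2-TG. The groups overlapped, with mNrf2-TG replicate 17 the lowest of all and the other mNrf2-TG hearts in the lower part of the NTG range. Its Log2FC was -0.18 (SE 0.11, edgeR adjusted p = 0.279), with an interval from 25.2% lower to 4.16% higher. The share of Adcy5 in the summed counts of both cyclases was 24.6%, 19.6%, 35.6% and 34.5% in NTG and 39.5%, 37.9% and 33.8% in mNrf2-TG, for means of 28.6% ± 7.75 (SD, n = 4) and 37.1% ± 2.93 (SD, n = 3). The shares overlapped, since NTG replicates 3 and 4 lay above the lowest mNrf2-TG heart. Adcy6 shares 605 exon bases with a gene on the opposite strand, and whether the strand was used in counting is not given in the sources used here.

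Prkaca encodes the catalytic alpha subunit of PKA, the kinase that phosphorylates the targets of the cascade (Entrez gene 18747, chromosome 8, 83972993 to 83996443, plus strand, in GRCm38). Its normalized counts in NTG were 1383, 1380, 1440 and 1389, the tightest group of the 9 genes, with a coefficient of variation of 2.05%. The mNrf2-TG hearts had 1726, 1907 and 1700, each above every NTG heart. Prkaca rose 1.27-fold, a Log2FC of 0.35 (SE 0.0666, 95% interval 0.20 to 0.50, edgeR adjusted p = 0.0078). The call held under all 14 alternatives tried, which included leaving out each library, with Log2FC from 0.29 to 0.38. The markers of fibroblasts (4 of 6 higher) and macrophages (4 of 6 higher) also rose, and in RNA from whole tissue a change in the share of a cell type cannot be told apart from a change in RNA per cell; their part in the Prkaca result was not tested.

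The start regions of Prkaca are shown because it was the gene that rose and because the transgene encodes a transcription factor. RefSeq gives 2 windows for it on GRCm38.p6, from 250 bases before to 50 bases after an annotated start, written 5′ to 3′ on the plus strand. Capitals mark a match to the antioxidant response element core, TGACNNNGC on either strand, to which Nrf2 binds as a heterodimer with small Maf proteins. The first window is chr8:83972728-83973027 and the second chr8:83976633-83976932.
Prkaca, upstream start: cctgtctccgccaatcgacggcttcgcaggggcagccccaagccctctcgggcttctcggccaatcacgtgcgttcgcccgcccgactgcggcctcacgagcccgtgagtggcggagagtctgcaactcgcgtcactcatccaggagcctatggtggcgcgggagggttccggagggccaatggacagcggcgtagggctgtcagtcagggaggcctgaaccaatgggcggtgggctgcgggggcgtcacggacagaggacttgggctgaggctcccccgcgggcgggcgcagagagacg
Prkaca, downstream start: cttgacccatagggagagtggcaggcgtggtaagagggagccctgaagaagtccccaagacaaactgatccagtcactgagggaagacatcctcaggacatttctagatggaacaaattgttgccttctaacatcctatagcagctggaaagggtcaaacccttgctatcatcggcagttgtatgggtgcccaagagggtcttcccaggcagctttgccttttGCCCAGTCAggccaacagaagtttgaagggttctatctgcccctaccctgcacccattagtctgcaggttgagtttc
The upstream window had no match, and the downstream one had GCCCAGTCA, which is the core on the opposite strand, 27 bases before the start. This motif was present in 12.4% of 32851 mouse windows of the same length, so that a match is common, and it is a description of letters rather than of binding. That share is per window, and both windows of Prkaca were searched. Which start the heart uses was not measured here. Among the other windows of the 9 genes that were given, Adcy5 had a match, TGACCCGGC, 242 bases before its start.

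Prkar1a encodes the type I-alpha regulatory subunit, which holds the catalytic subunits inactive until cAMP binds (Entrez gene 19084, chromosome 11, 109649405 to 109669656, plus strand, in GRCm38). It had 4865, 5003, 5472 and 6241 normalized counts in NTG and 6760, 6211 and 6372 in mNrf2-TG. The mNrf2-TG hearts lay above 3 of the NTG hearts, and NTG replicate 4 lay just above the lowest of them. The Log2FC of 0.26 (SE 0.0895, 95% interval 0.06 to 0.46) had an unadjusted p of 0.0167 and an edgeR adjusted p of 0.0758. Prkaca and Prkar1a were the 2 of the 9 genes with an unadjusted p under 0.05, beside 32.2% of all genes. Without NTG replicate 4 the Log2FC was 0.34 and the adjusted p 0.0178.

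RefSeq gives 6 start windows for Prkar1a. The one printed, chr11:109650699-109650998 on GRCm38.p6 and the plus strand, is shown because it holds the palindromic cAMP response element TGACGTCA, the site of the CREB family that PKA activates, in capitals.
Prkar1a, start window: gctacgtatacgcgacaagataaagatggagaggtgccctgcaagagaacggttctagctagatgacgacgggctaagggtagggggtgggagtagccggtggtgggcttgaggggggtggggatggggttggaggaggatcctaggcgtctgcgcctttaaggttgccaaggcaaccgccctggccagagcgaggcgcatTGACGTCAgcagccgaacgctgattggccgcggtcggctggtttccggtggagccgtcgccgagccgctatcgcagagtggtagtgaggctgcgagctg
The element lies 49 bases before this start, at 109650900 to 109650907, and the same letters lie 38 bases after another annotated start. It occurred in 1.79% of mouse windows, a share per window, and several windows were searched for Prkar1a. None of the windows of Prkaca, Adrb1, Adra1b, Adcy5 or Pde4d held it, and no window was given for Adra1a, Adcy6 or Pde3a.

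Among the other PKA subunit genes, Prkar2a alone passed the test. Prkar2a, the type II-alpha regulatory subunit that binds anchoring proteins, had 1013, 1026, 1117 and 1082 normalized counts in NTG and 791, 877 and 785 in mNrf2-TG. The mNrf2-TG hearts lay below every NTG heart, and Prkar2a fell, with a Log2FC of -0.37 (SE 0.0731, edgeR adjusted p = 0.0083). Its share of the counts of Prkar2a and Prkar1a was 14.8% to 17.2% in NTG (16.5% ± 1.15, SD, n = 4) and 10.5% to 12.4% in mNrf2-TG (11.3% ± 0.984, SD, n = 3), without overlap. Prkacb, the catalytic beta subunit, was at 743 to 860 in NTG hearts and 822 to 883 in mNrf2-TG hearts (Log2FC 0.10, SE 0.0726), and Prkar2b had 4.1 to 12.6 normalized counts in NTG hearts and 13.6 to 23.6 in mNrf2-TG hearts, with an edgeR adjusted p of 0.0817.

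Pkia, which encodes a peptide inhibitor of the free catalytic subunit, fell from between 3195 and 3612 normalized counts in NTG hearts to between 2219 and 2672 in mNrf2-TG hearts (Log2FC -0.41, SE 0.0845, edgeR adjusted p = 0.0102). Of the 3 PKA inhibitor genes tested, Pkia alone passed, and the other 2 did not. Per kilobase of exon, the ratio of Prkaca to Prkar1a RPKM was 0.454 ± 0.0474 (SD, n = 4) in NTG and 0.480 ± 0.0473 (SD, n = 3) in mNrf2-TG. The ratio of all catalytic to all regulatory subunit RPKM was 0.462 and 0.499. Both ratios of catalytic to regulatory messages overlapped between the genotypes.

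**Figure D2:**
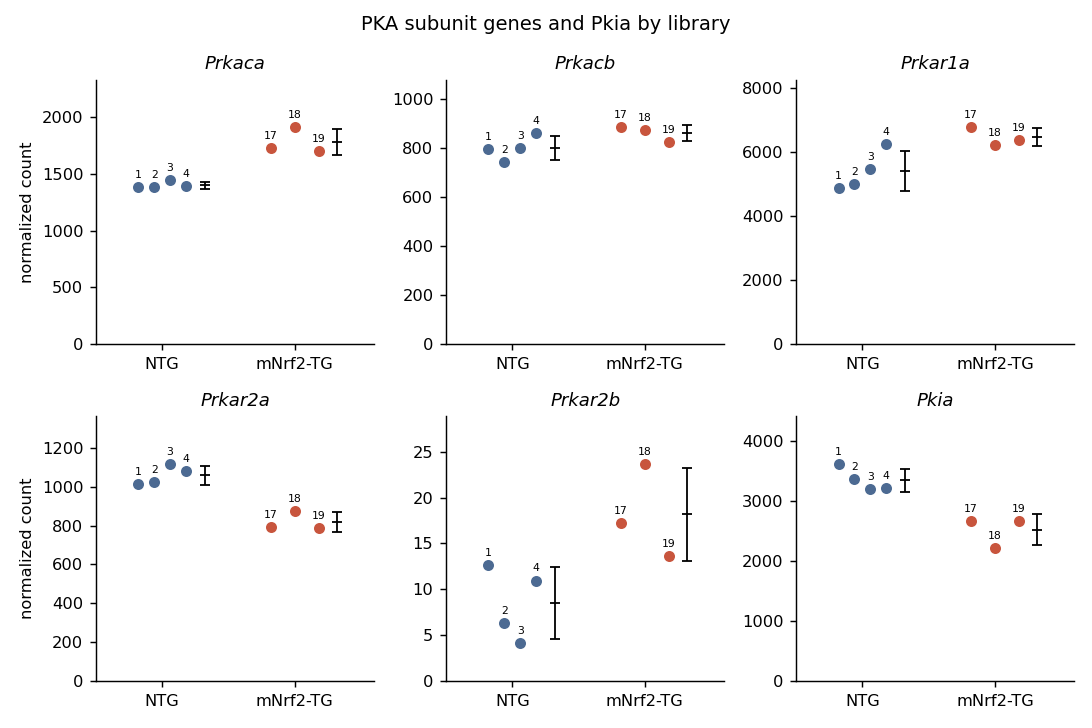
Normalized counts (vertical axes, from 0) of the PKA subunit genes other than Prkar1b, and of Pkia, in each library, labelled by replicate number, for NTG (blue) and mNrf2-TG (red), with the group mean and SD as a black bar. Prkaca is higher and Prkar2a and Pkia are lower in all 3 mNrf2-TG hearts than in any NTG heart, while Prkacb and Prkar1a overlap and Prkar2b, with at most 23.6 normalized counts, lies higher in mNrf2-TG without passing the test.

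Pde3a encodes the phosphodiesterase that cGMP inhibits and that acts near the sarcoplasmic reticulum, and Pde4d a cAMP-specific enzyme bound near beta receptors and ryanodine receptors (Entrez genes 54611 and 238871, chromosome 6, 141249269 to 141507448, and chromosome 13, 108449948 to 109953461, both plus strand, in GRCm38). Pde3a had 547, 541, 472 and 660 normalized counts in NTG and 476, 522 and 519 in mNrf2-TG. Pde4d had 442, 406, 287 and 449 in NTG and 409, 464 and 405 in mNrf2-TG. For Pde3a the mNrf2-TG hearts lay within the NTG range, and for Pde4d NTG replicate 3 was the low library and the rest were mixed. Pde3a was at a Log2FC of -0.13 (SE 0.11, edgeR adjusted p = 0.431) and Pde4d at 0.11 (SE 0.14, edgeR adjusted p = 0.661). The sign for Pde4d turned to -0.02 without NTG replicate 3, and Pde3a was at -0.04 without NTG replicate 4. Pde3a shares 741 exon bases with a gene on the opposite strand.

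Among their close relatives, Pde4b, which also serves beta-receptor signals, fell, with 343 to 447 normalized counts in NTG hearts and 220 to 273 in mNrf2-TG hearts (Log2FC -0.67, SE 0.12, edgeR adjusted p = 0.0061). Pde4a was at 0.09 (SE 0.13) and Pde3b at -0.22 (SE 0.29), neither past the test.

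**Figure D3:**
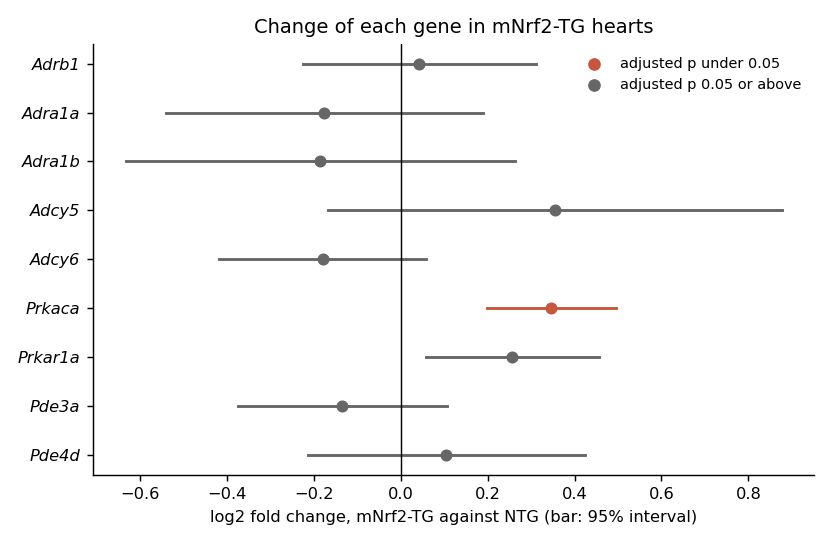
Log2FC of mNrf2-TG against NTG (horizontal axis) for the 9 genes from the edgeR fit, as points with 95% intervals, coloured where the adjusted p was under 0.05. Only the intervals of Prkaca, 0.20 to 0.50, and Prkar1a, 0.06 to 0.46, leave out 0, and only Prkaca passed the adjusted threshold.

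Levels of the 9 genes were compared with one another in RPKM (reads per kilobase of exon, scaled to the library). In NTG hearts Prkar1a had the highest mean level at 166 RPKM, followed by Prkaca at 74.7, Adcy6 at 44.0, Adcy5 at 16.9 and Adra1b at 11.1. Pde3a at 5.79, Adra1a at 5.26, Adrb1 at 4.66 and Pde4d at 4.38 RPKM came last. The ranges over the NTG hearts set Prkar1a, Prkaca and Adcy6 apart from each other and from Adcy5, and Adra1b apart from Pde3a, while Adcy5 and Adra1b overlapped and the last 4 genes overlapped each with its neighbour. The lengths were those of all annotated exons together, from 2488 bases for Prkaca to 12737 for Pde3a, and which of these exons the heart uses was not measured here.

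Leaving out NTG replicate 3 gave a Log2FC of 0.03 for Adrb1, -0.04 for Adra1a, -0.27 for Adra1b, -0.13 for Adcy6, 0.36 for Prkaca, 0.26 for Prkar1a and -0.20 for Pde3a. Of these, Prkaca alone passed the test. In the same fit Adcy5 passed as well, at 0.61 (edgeR adjusted p = 0.0234), unlike with all 7 libraries. Pde4d, at -0.02, did not pass.

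The wider pathway was taken as 114 genes in 14 lists by role, the 9 genes included, of which 106 were tested and 8 not analysed here. Of the 106, 30 passed the test (28.3%, beside 17.2% of all genes), 11 of them higher and 19 lower in mNrf2-TG, and the median Log2FC was -0.13. Without the 9 genes, 10 of 97 rose and 19 fell, beside 8.48% higher and 8.73% lower among all genes. The lists were chosen with earlier results of these data known, so these shares describe the lists and do not test the pathway.

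At the receptor level, none of the 7 adrenergic receptor genes tested passed. Of 6 genes for receptor kinases and arrestins, which switch off activated receptors, 3 rose. Grk5, a membrane-bound receptor kinase, had 332, 317, 432 and 399 normalized counts in NTG and 781, 821 and 812 in mNrf2-TG. All mNrf2-TG hearts were above all NTG hearts, at a Log2FC of 1.12 (SE 0.11, edgeR adjusted p = 0.000229). Arrb2, beta-arrestin 2, rose by 0.56 (SE 0.14, edgeR adjusted p = 0.0236, up to 0.0897 when 1 library was left out) and Grk6 by 0.33 with an edgeR adjusted p of 0.0497, a call lost in 6 of the 7 fits that left out a library. Grk2, the receptor kinase best known in heart failure, had 680 to 726 normalized counts in NTG hearts and 570 to 662 in mNrf2-TG hearts, with an edgeR adjusted p of 0.145 (Log2FC -0.17, SE 0.0743).

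Of 10 genes for G proteins and phospholipase C, 2 rose, and both encode inhibitory alpha subunits. Gnai3, which also encodes an inhibitory alpha subunit, did not pass (Log2FC -0.04, SE 0.0878). It had 288 to 320 normalized counts in NTG hearts and 272 to 326 in mNrf2-TG hearts. Gnai2 rose by 0.34 on the log2 scale (SE 0.0685, edgeR adjusted p = 0.0094) and Gnai1 by 0.76 (SE 0.19, edgeR adjusted p = 0.0235, up to 0.0852 when 1 library was left out). Gnas, the stimulatory alpha subunit, was at 8468 to 9046 normalized counts in NTG hearts and 8555 to 8977 in mNrf2-TG hearts. Its Log2FC of -0.01 had a 95% interval of -0.13 to 0.12.

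Of 9 adenylyl cyclases tested, 1 rose and 2 fell, none of them Adcy5 or Adcy6. Adcy7, a cyclase abundant in leukocytes, rose from between 64.8 and 95.6 normalized counts in NTG to between 188 and 201 in mNrf2-TG (Log2FC 1.20, SE 0.14, edgeR adjusted p = 0.000611). Macrophage markers moved in the same libraries, with a summed level of 64.0 to 86.3 RPKM in NTG hearts and 107 to 154 in mNrf2-TG hearts, and their part in the Adcy7 result was not tested. Adcy1 and Adcy8, which calcium stimulates, fell from low levels. Adcy1 had 44.3 to 70.2 normalized counts in NTG hearts and 11.8 to 24.7 in mNrf2-TG hearts (edgeR adjusted p = 0.0069), and Adcy8 had 8, 13, 14 and 16 raw counts in NTG and 3, 0 and 5 in mNrf2-TG, too few to fix the size of the change, and its edgeR adjusted p of 0.0281 rose to as much as 0.0743 when 1 library was left out. Adcy9 was at 0.12 (SE 0.11), not past the test.

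Downstream of cAMP, 2 of 10 anchoring protein genes rose and none fell. Akap6, which ties PKA to the nuclear envelope and sarcoplasmic reticulum of muscle, had 2104 to 2662 normalized counts in NTG hearts and 3115 to 3749 in mNrf2-TG hearts (Log2FC 0.52, SE 0.0972, edgeR adjusted p = 0.0071). Akap10 rose by 0.39 (SE 0.0970, edgeR adjusted p = 0.0214, up to 0.0854 when 1 library was left out). Of 17 phosphodiesterases, 1 rose and 3 fell: Pde7b rose, Pde1c and Pde8a fell, and Pde4b fell as given above. Pde1c, which calmodulin activates, had 689 to 1034 normalized counts in NTG hearts and 332 to 508 in mNrf2-TG hearts (Log2FC -1.11, SE 0.17, edgeR adjusted p = 0.0027). Pde8a, a high-affinity cAMP enzyme, had 187 to 254 and 110 to 139 (Log2FC -0.90, SE 0.13), and Pde7b 240 to 310 and 377 to 446 (Log2FC 0.57, SE 0.11). The groups overlapped for none of these 3 genes. Of 8 other cAMP effectors, Rapgef3, the exchange factor Epac1, fell by 0.49 and Bves, a cAMP-binding membrane protein, by 0.31, and none rose. Leaving out 1 library brought the adjusted p of Rapgef3 up to 0.101 and that of Bves up to 0.115.

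Of 6 CREB-family and coactivator genes, 1 passed the test, Crtc2, at a Log2FC of -0.33 (SE 0.0968, edgeR adjusted p = 0.0419, up to 0.118 when 1 library was left out). Of 7 genes that cAMP induces through CREB in many cells, 5 fell and none rose, with a list median of -1.36. Sik1, a kinase that restrains CREB coactivators, had 743.6, 573.3, 536.2 and 850.3 normalized counts in NTG and 230.2, 202.0 and 169.7 in mNrf2-TG. Each mNrf2-TG heart was below every NTG heart, at a Log2FC of -1.75 (SE 0.18, edgeR adjusted p = 0.000285). Nr4a3, an orphan nuclear receptor of the immediate early class, fell by 2.21, Per1, a clock gene, by 0.87 and Dusp1, a MAP kinase phosphatase, by 0.74. The fifth, Ppargc1a, a coactivator of mitochondrial genes, fell by 1.319 with an edgeR adjusted p of 0.0184, up to 0.0639 when 1 library was left out, and is named here after its values were seen. These genes also respond to signals other than cAMP.

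Of 10 genes whose proteins PKA phosphorylates in the cardiomyocyte, 1 rose and 4 fell. Pln, phospholamban, the inhibitor of the calcium pump SERCA, had 91328, 89556, 86550 and 88668 normalized counts in NTG and 74194, 75853 and 74663 in mNrf2-TG. All mNrf2-TG hearts lay below all NTG hearts, and Pln fell by 0.25 on the log2 scale (SE 0.0527, edgeR adjusted p = 0.0114, and 0.0577 without NTG replicate 1). Tnni3, cardiac troponin I, fell by 0.53 (SE 0.0627, edgeR adjusted p = 0.000716), and Fxyd1, phospholemman, fell by 0.40. The fourth, Cacnb2, a calcium channel beta subunit, also named after its values were seen, fell by 0.31 with an edgeR adjusted p of 0.0204, up to 0.0778 when 1 library was left out. Rrad, a small GTPase that restrains the L-type calcium channel until PKA phosphorylates it, rose from between 304 and 588 normalized counts in NTG to between 1101 and 1297 in mNrf2-TG (Log2FC 1.54, SE 0.19, edgeR adjusted p = 0.000944). Of 7 genes for catecholamine synthesis and uptake, none passed the test.

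Cell type markers moved beside these lists. Of 8 cardiomyocyte markers, 0 rose and 2 fell (Tnni3 and Myl2), with a summed level of 21663 to 26367 RPKM in NTG hearts and 20173 to 21865 in mNrf2-TG hearts. Fibroblast markers, 4 of 6 higher, summed to 182 to 248 RPKM in NTG hearts and 285 to 294 in mNrf2-TG hearts. Of 6 endothelial markers 1 rose and 2 fell, of 6 smooth muscle and pericyte markers 1 fell, and of the 5 neuron and Schwann cell, 3 adipocyte and 4 red blood cell markers tested none passed, with Adipoq and Plin1 at 5 counts or fewer. Of 4 atrial markers tested Nppa alone passed, with Myl7 near 0 as given above. Myl4 had 17 to 26 counts per NTG library and 22 to 65 per mNrf2-TG library (Log2FC 0.94, edgeR adjusted p = 0.0690). Dkk3 had 13 to 21 counts per NTG library and 28 to 37 per mNrf2-TG library (Log2FC 0.82, edgeR adjusted p = 0.0623). The part of cell composition in the changes of the pathway was not tested.

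**Figure D4:**
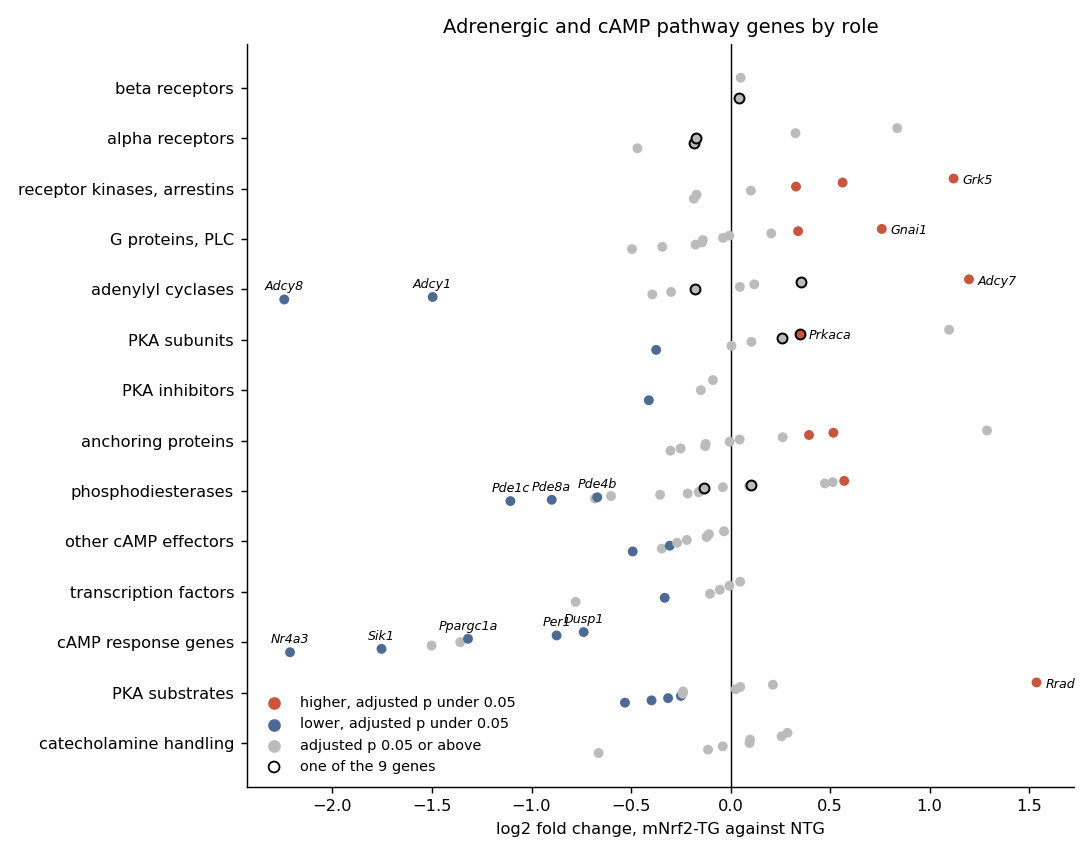
Log2FC of mNrf2-TG against NTG (horizontal axis) for the 106 tested genes of the adrenergic and cAMP pathway, grouped by role, with 1 point per gene, coloured where the edgeR adjusted p was under 0.05 and ringed for the 9 genes. Of 7 cAMP response genes 5 lie to the left in blue, whereas the points of the alpha and beta receptors are all grey.

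Among 7978 other genes with a mean count of at least 100, those whose levels over the 7 libraries, each centred on its own mean, were nearest to those of Prkaca included Cygb (root mean square difference 0.0300 in log2 level), Fth1 (0.0381), Gpi1 (0.0390) and Ndrg3 (0.0395). Cygb encodes cytoglobin, Fth1 ferritin heavy chain and Gpi1 the glycolytic glucose phosphate isomerase. The Log2FC of these 4, 0.33 to 0.40, was near that of Prkaca because the measure selects for it.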

How the data were processed

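Hearts of 3 mNrf2-TG and 4 NTG mice gave stranded poly(A) libraries, read singly over 50 bases. The authors used Novoalign for alignment (2.08.01 in the submitters' processing notes) and deposited raw counts per gene, without normalization. The sources name both a human and a mouse build, and the counting program and its use of strand are not given in the sources used here. The deposited rlog values (regularized log2, made by the authors with DESeq2) and the authors' comparison (log2 fold changes, p-values and mean signal) were not used. Of 14665 entries, 24 that repeated an Entrez gene were removed. Up to 0.390% of the 50-base stretches of each of the 9 genes occur in other genes.

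Genotypes came from the labels. The 14637 genes with a summed count above 1 entered edgeR 4.0.16 (R 4.3.3), scaled by TMM, and genotype was tested by quasi-likelihood with no covariate, with Benjamini-Hochberg adjustment over all of them. The SE was taken as the size of the Log2FC over the square root of F. Normalized counts are TMM-scaled to the mean library size of 7526178. RPKM used the union of GENCODE M21 (GRCm38) exons, which also gave positions. Tested on simulated counts, in which 200 of 14602 genes had a Log2FC of 1.5 in size, the fit recovered 99% of the changed genes, and 6.60% of calls were false. The changed genes were drawn from those above a set minimum level. Smaller changes, such as that of Prkaca, were not simulated, so the share recovered does not apply to them. Alternatives were DESeq2 1.42.0, limma-voom (limma 3.58.1), DESeq2 size factors, the library total as the scale, filterByExpr, at least 10 counts in every library of a group, no filter, and leaving out each library. The 9 genes and the lists were chosen with earlier results of these data known. Named beside the 9 by rule are set relatives and the 4 genes per list with the smallest adjusted p past the test. Ppargc1a, Cacnb2 and Gnai3 were added after their values were seen. Some of the set relatives are not reported here. Tables and plots used Python 3.11.15, pandas 2.3.3, numpy 2.4.6 and matplotlib 3.10.9.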

Additional observations from a re-analysis of the deposited data

Results flagged for a closer look

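Among 45 named genes, 2 had an NTG library whose gap to the next, as a share of the group's range, was above Dixon's 95% critical value for 4 samples, and chance gives about 1 in 20. For Prkaca, NTG replicate 3 was the highest of its group at 1440.49 normalized counts, with the other 3 between 1380 and 1389 (ratio 0.847), and all 3 mNrf2-TG hearts were higher still. For Arrb2, NTG replicate 4 was the lowest at 53.8 normalized counts, with the other 3 between 68.4 and 71.1 (ratio 0.842).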

How the results depend on the processing

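Other tests, scalings and filters kept the direction and the call of all 9 genes, and gave 2417 to 2655 genes past the threshold and 29 to 30 in the pathway lists. Prkaca was called in all 14 alternatives, with adjusted p from 0.000152 to 0.0324. Leaving out 1 library gave a Log2FC from 0.22 to 0.61 for Adcy5, called only without NTG replicate 3, and from 0.22 to 0.34 for Prkar1a, called only without NTG replicate 4. It gave -0.030 to 0.10 for Adrb1, below 0 without NTG replicate 2 (-0.01) and without mNrf2-TG replicate 19 (-0.030), and -0.021 to 0.17 for Pde4d, below 0 without NTG replicate 3 (-0.021). The ranges were -0.33 to -0.04 for Adra1a, -0.45 to -0.03 for Adra1b, -0.25 to -0.11 for Adcy6 and -0.20 to -0.04 for Pde3a, none of them past the test. The number of genes past the threshold ran from 1373 without mNrf2-TG replicate 17 to 2950 without NTG replicate 3, at 1603 without NTG replicate 1, 1597 without NTG replicate 2, 1496 without mNrf2-TG replicate 18 and 1642 without mNrf2-TG replicate 19, and the pathway count from 21 to 38. Each of these fits, including the one with the highest count, had fewer libraries, and the cause of the differences in count was not tested. Pathway calls lost in at least 1 such fit, with the number lost of 7, were Bves, Crtc2 and Grk6 (6 each), Gnai1 and Rapgef3 (5 each), Adcy8 and Akap10 (3 each), Arrb2 and Ppargc1a (2 each), Cacnb2 (4) and Pln (1), and Crtc2 and Grk6 were also lost under 2 of the other alternatives. Pathway genes called under an alternative alone included Adcy5, Akap5, Akap8, Crem, Mybpc3, Nr4a1, Nr4a2, Plcb1 and Rapgef4 without NTG replicate 3, Nr4a1 also without NTG replicate 2 or 4, Akap5 also without mNrf2-TG replicate 18, Adcy4 and Prkar1a without NTG replicate 4, Crem also with DESeq2, and Ryr2 with DESeq2 and limma-voom. The study describes the NTG mice as littermates of the transgenic mice. No litter is given per library in the sources used here, so no paired analysis was run. Depth limits genes of low count, such as Adra1d, Prkar2b and Adcy8, with at most 34.4 normalized counts in any library.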
